A study of Mus musculus with 12 samples.

Results

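The genes described here are 36 genes of the unfolded protein response, the integrated stress response and the heat shock response in the skin of mice with or without *Cdc42* that were given zinc oxide nanoparticles (ZnO NPs). They were chosen as rows of the gene count table whose Ensembl identifier maps to 36 listed mouse symbols, and all 36 were found among the 52636 genes of the table and passed the filter on low counts. Skin was taken on day 14 from C57BL/6 mice (C57BL/6J in the study's methods) labelled as 3 months old, in 4 groups of 3 libraries. WT mice carry intact *Cdc42* and KO mice lack it in cells that express Cre from the keratin K5 promoter, so that dermal, fat, muscle and blood cells of the KO skin keep the gene. The WT and KO groups received saline with HPMC as vehicle, and in the groups labelled WT+ZnO NPs or KO+ZnO NPs the particles were given continuously up to the same day. The study describes 3 mice in each group, and the study and the labels do not say that RNA was pooled.

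The unfolded protein response watches over protein folding in the endoplasmic reticulum (ER), the compartment in which secreted and membrane proteins are made. Its sensors are the kinases IRE1 (*Ern1*) and PERK (*Eif2ak3*) and the membrane-bound transcription factor *Atf6*, and they raise ER chaperones and degradation factors through *Xbp1*, *Atf4* and cleaved *Atf6*. PERK is also an arm of the integrated stress response, in which phosphorylation of the initiation factor eIF2 slows translation while favouring translation of *Atf4*, a factor that drives genes of amino acid supply. The heat shock response, led by the factor *Hsf1*, raises chaperones of the cytosol. In skin, keratinocytes make large amounts of keratins and junction proteins, and sebaceous and hair follicle cells carry a heavy secretory and synthetic load.

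Each of these responses is known for a short promoter element, and the elements found near the start sites of the members are shown here because they tie the folding genes to one another apart from their measured levels. The 250 bases before each RefSeq start on GRCm38 were searched on both strands, and 30 of the 36 genes had a promoter in the table used. No promoter was at hand for *Atf6*, *Manf*, *Hsf1*, *Hspa8*, *Hsp90aa1* and *Hsp90ab1*. The ER stress element, CCAAT and CCACG with 9 free bases between them, was found before 6 of the 30 genes (20%) and in 0.113% of all 32851 promoters. All 6 are ER chaperones or foldases, and the elements lie between 212 and 47 bases before the start. In the sequences below, written 5′ to 3′ on the strand of the gene with capitals for the element, *Hspa5*, *Canx*, *Pdia6* and the first element of *Hsp90b1* hold it in the forward direction, while *Calr*, *Creld2* and the second element of *Hsp90b1* hold it in reverse.
Hspa5, chr2:34772020-34772048, plus strand: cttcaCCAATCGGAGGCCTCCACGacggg
Hsp90b1, first element, chr10:86705613-86705681, minus strand: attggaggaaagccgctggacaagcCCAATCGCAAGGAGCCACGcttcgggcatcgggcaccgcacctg
Hsp90b1, second element, chr10:86705528-86705556, minus strand: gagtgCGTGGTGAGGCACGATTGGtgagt
Calr, chr8:84847050-84847118, minus strand: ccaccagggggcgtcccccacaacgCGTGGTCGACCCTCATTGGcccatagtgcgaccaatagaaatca
Canx, chr11:50325775-50325843, minus strand: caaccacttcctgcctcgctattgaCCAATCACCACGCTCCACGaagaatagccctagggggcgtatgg
Pdia6, chr12:17266466-17266534, plus strand: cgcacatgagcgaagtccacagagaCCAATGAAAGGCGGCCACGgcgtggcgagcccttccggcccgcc
Creld2, chr15:88819495-88819563, plus strand: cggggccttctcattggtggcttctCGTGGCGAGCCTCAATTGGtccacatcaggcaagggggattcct

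The related ER stress element II, ATTGG and CCACG with 1 free base between them, stood before *Herpud1* alone among the members and in 0.0304% of all promoters. The heat shock element, searched as TTC, GAA and TTC with 2 free bases after each of the first parts, was found before 2 of the 30 genes, *Hspd1* and *Hspe1*, and in 0.466% of all promoters. These mitochondrial chaperonin genes lie head to head, and both promoters read the same run from opposite strands. The capitals of *Hspe1* below join 2 overlapping copies of the element, 1 in each direction. The shorter pair of repeats GAANNTTC, which every full heat shock element contains, stood before 6 of the 30 genes (*Asns*, *Hspa1a*, *Hspa1b*, *Hspb1*, *Hspd1* and *Hspe1*) and in 6.69% of all promoters. The C/EBP-ATF response element TGATGNAA, through which *Atf4* acts, stood before *Asns*, *Chac1* and *Herpud1* and in 3.45% of all promoters, and in *Asns* it overlaps the pair of heat shock repeats. *Chac1* and *Herpud1* hold it in reverse, in *Herpud1* outside the stretch shown.
Herpud1, chr8:94386352-94386412, plus strand: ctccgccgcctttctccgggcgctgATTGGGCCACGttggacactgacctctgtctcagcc
Hspe1, chr1:55088054-55088081, plus strand: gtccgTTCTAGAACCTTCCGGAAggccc
Asns, chr6:7693220-7693237, minus strand: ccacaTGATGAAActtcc
Chac1, chr2:119351024-119351081, plus strand: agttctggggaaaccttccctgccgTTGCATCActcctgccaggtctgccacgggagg

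Total counts lay between 21076320 and 28867802 per library, and levels are given as CPM, the count of a gene relative to the library total, scaled by TMM factors. *Cdc42* stood at 606 to 628 CPM in WT, 415 to 464 in KO, 310.4 to 349.8 in skin labelled WT+ZnO NPs and 313 to 453 in skin labelled KO+ZnO NPs. These levels go against the label WT+ZnO NPs, and the treated groups are called by their labels throughout. Transcripts of 4 Y-linked genes summed to 192 to 242 CPM in all 3 libraries labelled WT+ZnO NPs, in KO replicate 1 and in KO+ZnO NPs replicate 1, and to at most 0.0504 CPM in the other 7 libraries. *Xist*, the transcript of the inactive X chromosome of female cells, was at 0 to 0.474 CPM in those 5 libraries and at 459 to 1032 CPM in the other 7. The study describes its KO mice as female, and KO replicate 1 and KO+ZnO NPs replicate 1 go against this. By these transcripts the WT libraries read as female and those labelled WT+ZnO NPs as male. Between WT and WT+ZnO NPs, treatment, sex, whatever goes with it and whatever set the lower *Cdc42* level cannot be told apart. Markers of interfollicular keratinocytes were present in every library, at 7064 to 28380 CPM over 10 genes, but not at a steady level. Their sum was 9262 to 14099 CPM in WT, 15686 to 28380 CPM in KO, 7064 to 11438 CPM in skin labelled WT+ZnO NPs and 12104 to 20259 CPM in skin labelled KO+ZnO NPs.

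The 36 genes together took 0.658% to 0.909% of the counts of a library. Per kilobase of exon, the highest mean levels in WT were those of the constitutive cytosolic chaperones *Hsp90ab1* (401 CPM per kb) and *Hspa8* (299), followed by the ER lectin chaperone *Calr* (240.0), the small heat shock protein gene *Hspb1* (233) and the ER foldase *Pdia3* (191). *Hspa5*, which encodes the ER chaperone BiP, followed at 164 CPM per kb. The lowest were the stress-induced genes and regulators *Eif2ak3* (5.71), *Chac1* (4.85), *Hsf1* (4.06) and *Trib3* (3.79). Counts of *Hspa1a* and *Hspa1b* cannot be fully separated, since 66.3% and 62.3% of their 50-base stretches occur in other genes, mostly in each other. The shared part was 50.1% for *Hspb1*, 47.5% for *Hsp90aa1*, 42.1% for *Hspd1*, 39.4% for *Hspa8*, 22.8% for *Hspe1* and at most 9.75% for every other member, and the exons of *Hspd1* and *Hspe1* overlap by 112 bases.

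**Figure D1:**
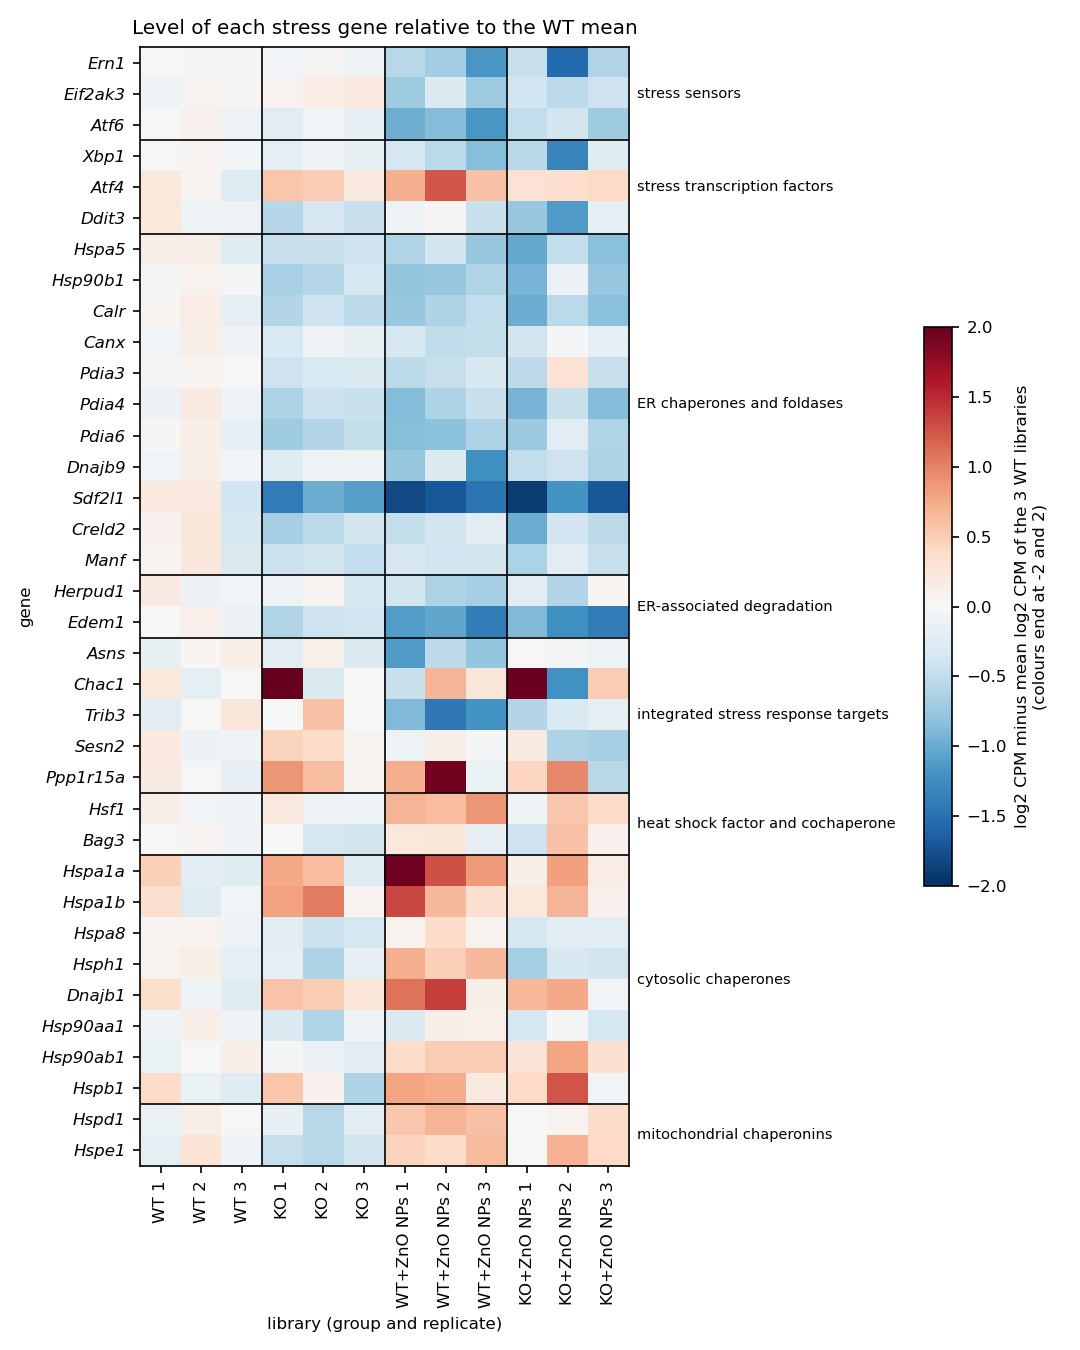
Level of the 36 stress genes in each of the 12 libraries, as log2 CPM minus the mean log2 CPM of the 3 WT libraries, with genes in rows by role and libraries in columns by group. Most ER rows are blue in KO and in both ZnO NP groups, down to *Sdf2l1*, while *Hspa1a*, *Hsph1*, *Hsf1* and *Hspd1* are red in all 3 libraries labelled WT+ZnO NPs.

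The first comparison sets skin labelled WT+ZnO NPs against WT, with treatment, sex and *Cdc42* level confounded as said above. The words "after ZnO NPs" name the labelled group here and do not set apart an effect of the particles. In skin labelled WT+ZnO NPs, genes of the ER folding system were lower than in WT, while the heat shock factor *Hsf1*, *Atf4* and some chaperones of the cytosol and mitochondria were higher. Of the 36 genes, 21 passed the test, 6 higher and 15 lower. This is 58.3% of the members against 43% of all 18822 genes tested, with 20.8% of all genes higher and 22.1% lower. The median log2 fold change of the members was -0.37 against 0.06 over all genes, and the groups did not overlap for 7 members that were higher and 18 that were lower (30.1% and 29.3% of all genes, 59.4% together). When libraries were scaled by their total count alone, the median of all genes moved to 0.16 and the members divided into 9 higher and 13 lower. In whole skin, fewer cells of a type and less RNA per cell cannot be told apart in any of these values.

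All 3 sensors were lower. *Atf6* (ENSMUSG00000026663, chr1:170704674-170867771, minus strand) stood at 99.3, 105 and 91.4 CPM in WT and at 50.1, 54.2 and 43.9 CPM in skin labelled WT+ZnO NPs. No treated library reached a WT library, and the level was 50% of WT (log2 fold change -1.0, standard error (SE) 0.12, adjusted p = 0.000155, by the quasi-likelihood test of edgeR after Benjamini and Hochberg, from here on "edgeR adjusted p"). *Ern1* was at 51.1, 49.4 and 51.9 CPM in WT and at 34.4, 31.5 and 22.7 CPM after ZnO NPs (log2 fold change -0.78, SE 0.24, edgeR adjusted p = 0.0253). *Eif2ak3* was at 32.8, 35.5 and 34.8 CPM in WT and at 21, 28 and 21 CPM after ZnO NPs (log2 fold change -0.56, SE 0.13, edgeR adjusted p = 0.00529). The groups did not overlap for any of the sensors.

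Among the factors downstream of the sensors, *Atf4* alone passed the test. It rose from 219, 196 and 158 CPM in WT to 309, 446 and 284 CPM in skin labelled WT+ZnO NPs, of which replicate 2 was the highest (log2 fold change 0.86, SE 0.19, edgeR adjusted p = 0.00473). *Xbp1*, whose mRNA is spliced by IRE1, was at 243, 251 and 235 CPM in WT and at 192, 167 and 135 CPM after ZnO NPs. Its groups did not overlap, but the difference did not pass the threshold (log2 fold change -0.56, SE 0.23, edgeR adjusted p = 0.0678). *Ddit3*, which encodes the pro-apoptotic factor CHOP, was at 27.2, 21.9 and 21.8 CPM in WT and at 22, 24 and 17.3 CPM after ZnO NPs. These libraries overlapped (log2 fold change -0.16, SE 0.23, edgeR adjusted p = 0.578).

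Of the 11 ER chaperones and foldases, 8 passed the test, all lower, where 22.1% of all genes were called lower. All 11 had a log2 fold change below 0, with a median of -0.62. The largest fall was in *Sdf2l1* (ENSMUSG00000022769, chr16:17130138-17132383, minus strand), a partner of ER co-chaperones of the DnaJ class. It was at 65.7, 65.9 and 44 CPM in WT and at 16.5, 17.8 and 20.8 CPM in skin labelled WT+ZnO NPs, which is 31.4% of WT (log2 fold change -1.67, SE 0.22, edgeR adjusted p = 0.000254). *Pdia6*, a disulfide isomerase, went from 404, 432 and 355 CPM to 219, 224 and 258 CPM (log2 fold change -0.77, SE 0.16, edgeR adjusted p = 0.00334). *Hsp90b1*, the Hsp90 chaperone of the ER, went from 446, 479.5 and 448 CPM to 264, 272 and 302 CPM (log2 fold change -0.71, SE 0.19, edgeR adjusted p = 0.0137). In each of these genes the highest treated library lay below the lowest WT library.

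*Hspa5*, the master chaperone that holds the sensors inactive, was at 754, 750.0 and 582 CPM in WT and at 457, 538 and 409 CPM after ZnO NPs (log2 fold change -0.57, SE 0.18, edgeR adjusted p = 0.024). *Calr*, a lectin chaperone of glycoproteins, was at 707, 766 and 600.0 CPM in WT and at 407, 449 and 491 CPM after ZnO NPs (log2 fold change -0.62, SE 0.16, edgeR adjusted p = 0.01). The groups were separate for both. The other called members of the group, *Dnajb9*, *Pdia4* and the membrane-bound lectin chaperone *Canx*, had log2 fold changes between -0.70 and -0.43. *Pdia3* (-0.44, edgeR adjusted p = 0.101), *Creld2* (-0.37, 0.127) and *Manf* (-0.37, 0.0594) did not pass the threshold. Calls were made for 5 of the 6 genes with the ER stress element and for 3 of the 4 genes of the group whose searched promoter did not hold it (*Sdf2l1*, *Pdia4* and *Dnajb9*), beside 43% of all genes, and the difference was not tested.

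Both genes of ER-associated degradation, the route by which misfolded proteins leave the ER, were lower too. *Edem1*, a lectin that marks glycoproteins for removal, stood at 183, 195 and 167 CPM in WT and at 83.6, 88 and 69.8 CPM in skin labelled WT+ZnO NPs, 44.3% of WT (log2 fold change -1.18, SE 0.15, edgeR adjusted p = 0.000209). *Herpud1*, a membrane protein of the degradation complex, stood at 112, 90.7 and 94.5 CPM in WT and at 76.6, 64.6 and 62.4 CPM after ZnO NPs (log2 fold change -0.54, SE 0.17, edgeR adjusted p = 0.0237). The groups did not overlap for either gene.

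Of the targets of the integrated stress response, 2 of 5 passed the test, both lower, a share of 40% against 43% of all genes. *Asns* (ENSMUSG00000029752, chr6:7675169-7693254, minus strand), which encodes asparagine synthetase, was at 43.3, 49.3 and 52.2 CPM in WT and at 22, 33.4 and 28.1 CPM after ZnO NPs (log2 fold change -0.80, SE 0.16, edgeR adjusted p = 0.003). *Trib3*, a pseudokinase that feeds back on *Atf4*, was at 6.84, 7.96 and 9.34 CPM in WT and at 4.32, 2.97 and 3.48 CPM after ZnO NPs (log2 fold change -1.16, SE 0.24, edgeR adjusted p = 0.00329). The treated libraries lay below all WT libraries for both. *Ppp1r15a*, the phosphatase subunit that reverses eIF2 phosphorylation, was at 34.9, 30.6 and 27.6 CPM in WT and at 51.1, 118 and 28.1 CPM after ZnO NPs, so that replicate 3 lay among the WT libraries (log2 fold change 1.09, SE 0.49, edgeR adjusted p = 0.0941). *Chac1*, a glutathione-degrading enzyme, and *Sesn2* overlapped between the groups, with log2 fold changes of 0.22 (SE 0.83) and 0.00 (SE 0.22).

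On the heat shock side, *Hsf1* itself was higher. It was at 31.7, 27.7 and 27.1 CPM in WT and at 46, 44 and 53.3 CPM in skin labelled WT+ZnO NPs (log2 fold change 0.73, SE 0.17, edgeR adjusted p = 0.00563). Of the 8 cytosolic chaperones, 3 passed the test, all higher, a share of 37.5% against 43% of all genes, and 7 had a log2 fold change above 0. *Hspa1a* (ENSMUSG00000091971, chr17:34969190-34972156, minus strand), the stress-inducible Hsp70, was at 34.6, 21.2 and 20.9 CPM in WT and at 95.5, 59.9 and 44.8 CPM after ZnO NPs (log2 fold change 1.39, SE 0.36, edgeR adjusted p = 0.0101). Its near copy *Hspa1b* was at 111, 74.8 and 85.4 CPM in WT and at 224, 140.4 and 110.0 CPM after ZnO NPs, which overlap (log2 fold change 0.81, SE 0.31, edgeR adjusted p = 0.0549). *Hsph1* (ENSMUSG00000029657, chr5:149614287-149636376, minus strand), a nucleotide exchange factor for Hsp70, rose from 53.2, 55 and 44.4 CPM to 82.6, 70.8 and 79.5 CPM (log2 fold change 0.61, SE 0.15, edgeR adjusted p = 0.00916). *Dnajb1*, an Hsp70 co-chaperone, was at 107, 78.2 and 71.2 CPM in WT and at 178, 219 and 90.9 CPM after ZnO NPs (log2 fold change 0.93, SE 0.31, edgeR adjusted p = 0.0327), and its treated replicate 3 lay within the WT range.

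The abundant cytosolic chaperones did not pass the edgeR test, while DESeq2 on all 12 libraries called *Hsp90ab1* higher. *Hspa8*, the constitutive Hsp70, was at 1315, 1343 and 1201 CPM in WT and at 1343, 1650 and 1355 CPM after ZnO NPs (log2 fold change 0.17, SE 0.15, edgeR adjusted p = 0.38). *Hsp90aa1* was at 298, 346 and 300.4 CPM in WT and at 257, 339.5 and 336 CPM after ZnO NPs (log2 fold change -0.02, SE 0.17). *Hspb1* was at 306, 214 and 199.7 CPM in WT and at 407, 395 and 270.0 CPM after ZnO NPs (log2 fold change 0.58, SE 0.37). The libraries of these 3 genes overlapped between the groups, as did those of the co-chaperone *Bag3* (log2 fold change 0.10, SE 0.22), and *Hsp90ab1* had a log2 fold change of 0.45 (edgeR adjusted p = 0.0646) with separate groups. In the mitochondria, the chaperonin *Hspd1* rose from 176, 209 and 193 CPM to 280.5, 308 and 287 CPM (log2 fold change 0.60, SE 0.15, edgeR adjusted p = 0.00765), and its partner *Hspe1* went from 110.4, 153 and 119 CPM to 171, 162 and 196 CPM (log2 fold change 0.47, edgeR adjusted p = 0.0605).

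**Figure D2:**
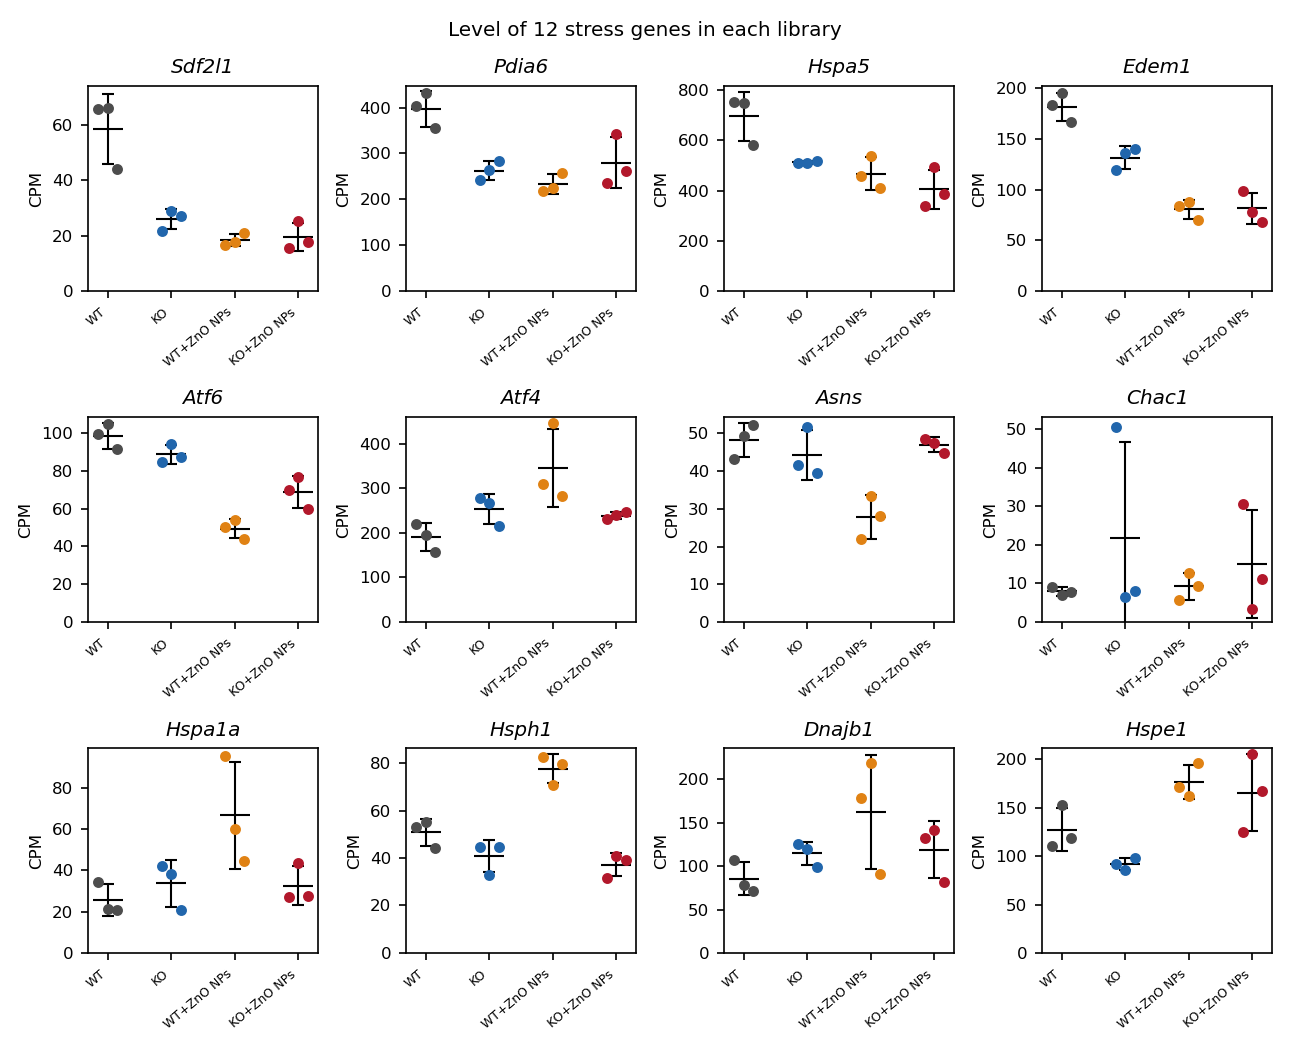
Level in CPM (y axis, from 0) of 12 stress genes in each of the 4 groups (x axis), with 1 point per library and bars for the mean and 1 SD of 3 libraries, the lower bar of *Chac1* in KO running past 0. *Sdf2l1*, *Pdia6* and *Edem1* are highest in WT, and *Hsph1* is at 70.8 to 82.6 CPM in skin labelled WT+ZnO NPs against at most 55 CPM elsewhere.

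Other transcripts moved with these differences. The sum of 15 immediate early genes was 2471 to 13176 CPM in skin labelled WT+ZnO NPs and 638 to 1178 CPM in WT, with 13 of the 15 called higher and replicate 2, the highest for *Atf4*, *Ppp1r15a* and *Dnajb1*, also the highest for this sum. The sum of 8 leukocyte markers was 256 to 523 CPM against 2490 to 3174 CPM in WT, and that of 9 genes of growing hair follicles was 1101 to 5176 CPM against 5.33 to 11.8 CPM. The sum of 8 adipocyte markers was 1189 to 2540 CPM against 6449 to 8888 CPM in WT, with 5 of the 8 called lower, and that of 8 melanocyte markers 443 to 1267 CPM against 70.2 to 96 CPM, with 7 called higher and 1 lower. Of the 10 keratinocyte markers 5 were called lower and 2 higher (median log2 fold change -1.95), while their sums overlapped. Plasma cell markers (4 of 10 called lower and 1 higher, median log2 fold change -1.49) and dermal fibroblast markers (3 of 8 called lower and 1 higher, median -0.74) also had sums that overlapped. The sum of 12 skeletal muscle genes was 24480, 6522 and 11485 CPM against 6013 to 7264 CPM in WT (1 of 11 tested called higher), highest in replicate 1, which was also the highest treated library for *Hspa1a*, *Hspa1b* and *Hspb1*. Replicates 2 and 3 went the other way, with the larger muscle sum in replicate 3 and higher levels of these genes in replicate 2. Of 8 sebaceous gland markers 2 were called higher, with sums of 5562 to 9234 CPM against 4056 to 6142 CPM. The part of these transcripts in the stress genes was not tested. With a covariate for the Y-linked transcripts, 6 members were called in place of 21, *Hsf1* higher and *Asns*, *Atf6*, *Chac1*, *Edem1* and *Sdf2l1* lower, while the calls over all 18822 genes went from 8085 to 3896. No WT library and every library labelled WT+ZnO NPs holds Y-linked transcripts. The covariate is thus estimated from KO replicate 1 and KO+ZnO NPs replicate 1 against the rest of their groups, and is carried over to this comparison. Of the 6, *Chac1* was not among the 21, and its highest levels were in those replicates (50.4 and 30.6 CPM). The other 16 of the 21 kept their direction at edgeR adjusted p = 0.0591 to 0.427. Their log2 fold changes under the covariate were close to those above for *Atf4* (0.79), *Hspa1a* (1.30), *Hsph1* (0.67), *Hspd1* (0.60), *Herpud1* (-0.56) and *Eif2ak3* (-0.55) and further from 0 for *Ern1* (-1.05). They were nearer to 0 for *Hspa5* (-0.39), *Hsp90b1* (-0.36), *Calr* (-0.41), *Canx* (-0.21), *Pdia4* (-0.40), *Pdia6* (-0.50), *Dnajb9* (-0.63), *Trib3* (-0.83) and *Dnajb1* (0.70). Without the covariate, 15 of the 21 calls held whichever library was left out. The calls of *Ern1* (without WT 1, 2 or 3 or WT+ZnO NPs 3, edgeR adjusted p = 0.0549 to 0.0969), *Hspa5* (without WT 1 or 2 or WT+ZnO NPs 1 or 3, 0.0593 to 0.0925), *Canx* (without WT 2 or WT+ZnO NPs 2 or 3, 0.0643 to 0.0795), *Herpud1* (without WT 1 or WT+ZnO NPs 2 or 3, 0.0678 to 0.0862), *Dnajb9* (without WT 2, 0.0506) and *Dnajb1* (without WT 2 or 3 or WT+ZnO NPs 1 or 2, 0.0821 to 0.126) did not.

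The next comparison asks what the *Cdc42* deletion changed without ZnO NPs. In KO skin every ER chaperone and foldase lay lower in all 3 libraries than in any WT library, while the sensors stayed near WT and the targets of the integrated stress response and most heat shock genes overlapped WT. The test called 2 of the 36 members, both lower and both of the ER folding group, which is 5.56% against 8.18% of all genes tested (4.61% higher and 3.58% lower). Groups did not overlap for 18 members that were lower and 1, *Eif2ak3*, that was higher, against 19.9% and 18.6% of all genes (38.5% together). The 11 ER chaperones and foldases had a median log2 fold change of -0.51, against -0.16 for the 36 members and 0.01 for all genes, and 8 of the 11 had an unadjusted p below the threshold, as did 4911 of all 18822 genes.

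Markers of several cell types were separate between KO and WT in the same libraries. The sum of 8 dermal fibroblast markers was 23683 to 37968 CPM in KO against 7919 to 14804 CPM in WT, and that of the 10 keratinocyte markers was also higher in all KO libraries, though edgeR called 0 genes of either list (3 of each by DESeq2 on all 12 libraries, 4 of each at an unadjusted p below the threshold). The sum of 10 plasma cell markers, among them *Xbp1*, was 1469 to 3531 CPM against 782 to 1065 CPM (3 called higher), and that of the melanocyte markers 152 to 310.3 CPM against 70.2 to 96 CPM (3 called higher). The adipocyte sum was lower, at 2979 to 5731 CPM against 6449 to 8888 CPM (0 of 8 called by edgeR, 1 by DESeq2 and 1 at an unadjusted p below the threshold). Of 9 growing hair follicle genes 8 were called higher. The part of these cell types in the levels of the ER genes was not tested.

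*Sdf2l1* was at 21.8, 29 and 27.1 CPM in KO against 65.7, 65.9 and 44 CPM in WT, which is 44.4% of WT (log2 fold change -1.17, SE 0.22, edgeR adjusted p = 0.0118). *Pdia6* was at 241, 263 and 283 CPM in KO against 404, 432 and 355 CPM in WT (log2 fold change -0.60, SE 0.16, edgeR adjusted p = 0.0445). These were the called genes. *Hspa5* was at 509, 509 and 518 CPM in KO against 754, 750.0 and 582 CPM in WT, a difference that did not pass the threshold (log2 fold change -0.44, SE 0.18, edgeR adjusted p = 0.144). *Hsp90b1* was at 293, 307 and 359.7 CPM in KO (log2 fold change -0.52, edgeR adjusted p = 0.123) and *Calr* at 457, 517 and 480.3 CPM (log2 fold change -0.51, edgeR adjusted p = 0.0726). For each of these genes the KO libraries lay below the WT libraries without overlap.

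The sensors were close to WT in KO skin, with *Atf6* at 84.6, 94.4 and 87.4 CPM, *Ern1* at 48.9, 51.8 and 47.5 CPM and *Eif2ak3* at 36.2, 38 and 39.4 CPM, and their log2 fold changes lay between -0.15 and 0.14. *Xbp1* was at 215, 231 and 218 CPM (log2 fold change -0.13, SE 0.23) and *Ddit3* at 15.8, 18.6 and 17 CPM (log2 fold change -0.46, SE 0.23). *Atf4* was at 278, 267 and 216 CPM, with the lowest KO library below the highest WT library (log2 fold change 0.41, SE 0.19, edgeR adjusted p = 0.201). Among its targets, *Asns* at 41.6, 51.7 and 39.4 CPM and *Trib3* at 7.95, 12 and 8 CPM overlapped WT. The largest fold change of all members was that of *Chac1* (log2 fold change 1.45, SE 0.84), and it came from KO replicate 1 at 50.4 CPM, with the other two at 6.54 and 7.96 CPM. That library also held the highest sum of growing hair follicle genes in the series, 11807 CPM against 25.4 and 3413 CPM in the other KO libraries, and the part of this in *Chac1* was not tested.

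Of the 12 heat shock genes 0 were called in KO by edgeR and 1, *Hspa8*, by DESeq2 on all 12 libraries, and 2 had an unadjusted p below the threshold, *Hspa8* and *Hspe1*. *Hspa8* was at 1094, 949 and 1008 CPM, below all WT libraries (log2 fold change -0.34, SE 0.15, edgeR adjusted p = 0.187), and *Hspe1* at 91.9, 86 and 97.7 CPM was also below them (log2 fold change -0.47, SE 0.18, edgeR adjusted p = 0.134). *Hsf1* at 33.1, 26.8 and 26.8 CPM and *Hspa1a* at 42.2, 38.1 and 20.9 CPM overlapped WT. The call of *Sdf2l1* was lost without WT replicate 2 (log2 fold change -1.08, edgeR adjusted p = 0.0586) and among the libraries without Y-linked transcripts (-1.06, 0.0621), where *Pdia6* was not called either (-0.54, 0.154). *Pdia6* also lost its call without any 1 library of WT, KO or WT+ZnO NPs (edgeR adjusted p = 0.0523 to 0.165), whereas DESeq2 on all 12 libraries called 7 members and on the 6 libraries of these groups 12, all lower. Over all genes DESeq2 called 3029 of 21580 and 4521 of 21044 in these fits, against 1540 of 18822 by edgeR.

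**Figure D3:**
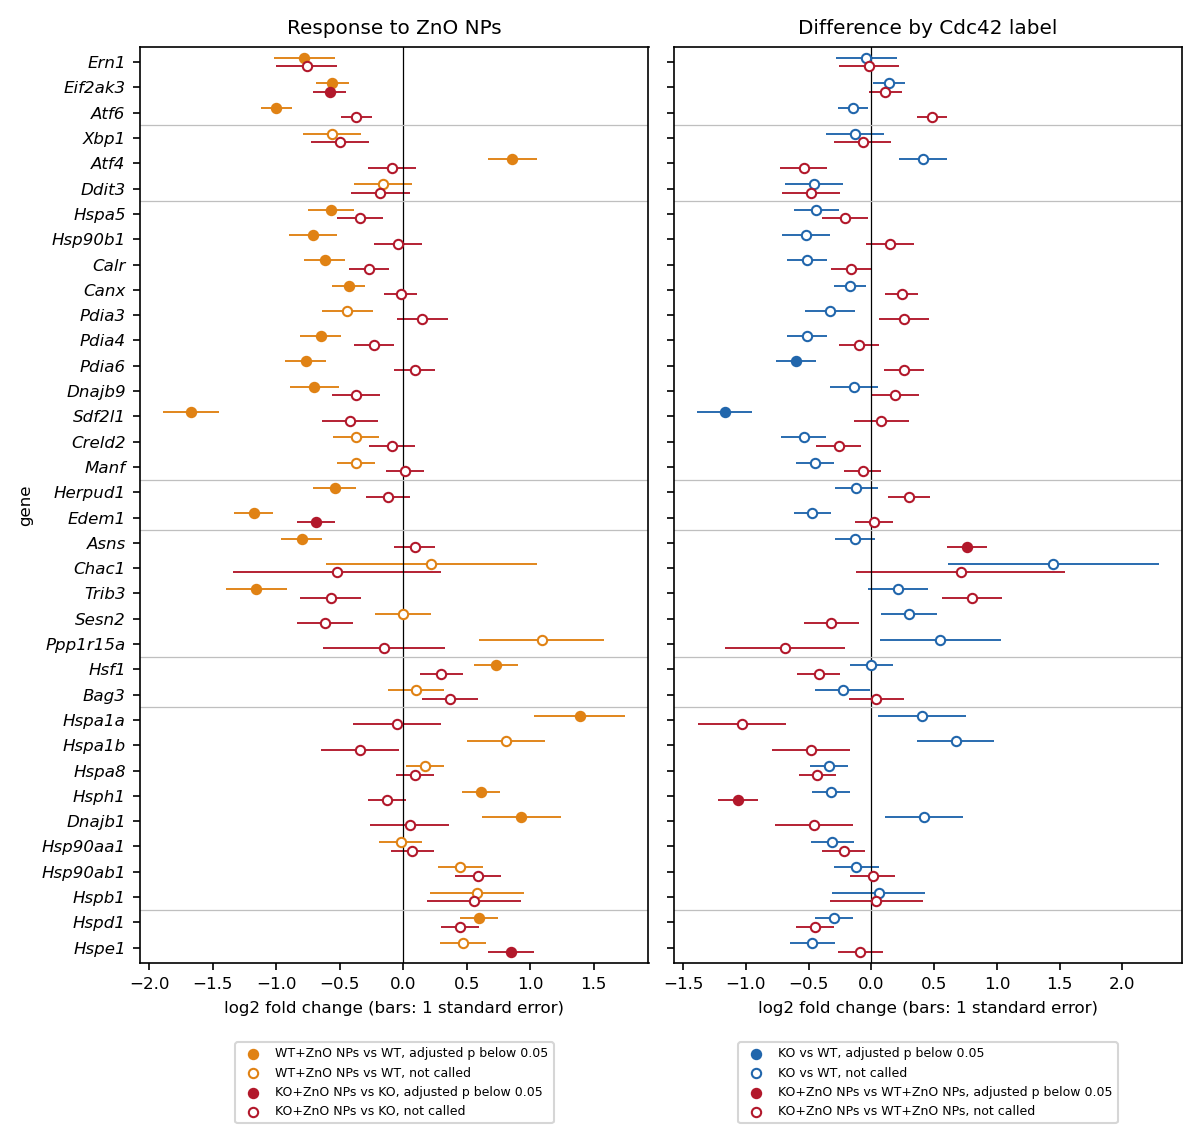
Log2 fold change of each of the 36 stress genes (x axis) with bars of 1 standard error, for the responses to ZnO NPs in the left panel and the differences between KO and WT labels in the right panel, with filled points where the edgeR adjusted p is below 0.05. In the left panel 21 orange points of the WT label are filled and 3 red points of the KO label, and in the right panel all 11 ER chaperones and foldases have a blue point (KO against WT) left of 0.

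The response to ZnO NPs in skin labelled KO was smaller in number. *Eif2ak3* and *Edem1* were lower and *Hspe1* was higher than in KO, and these 3 of 36 members (8.33%, against 14.7% of all genes, 6.57% higher and 8.09% lower) were the ones called. The median log2 fold change of the members was -0.10, against 0.01 for all genes. Groups did not overlap for 3 members that were higher and 8 that were lower, against 17% and 17.6% of all genes (34.6% together). Beside these, the leukocyte sum was 534 to 954 CPM in skin labelled KO+ZnO NPs against 1744 to 3037 CPM in KO, with 7 of 8 markers called lower. The plasma cell sum was 780.2 to 1093 CPM against 1469 to 3531 CPM, with 7 of 10 called lower, *Derl3* of ER-associated degradation among them but not *Xbp1*. The melanocyte sum was 380.3 to 525 CPM against 152 to 310.3 CPM, where edgeR called 0 of 8 higher and 1 lower, DESeq2 on all 12 libraries called 6, and 6 had an unadjusted p below the threshold (median log2 fold change 1.67). The dermal fibroblast sum was 16012 to 21884 CPM against 23683 to 37968 CPM (1 of 8 called lower by edgeR, 2 called by DESeq2, 4 at an unadjusted p below the threshold). Sebaceous gland markers (3 of 8 called higher) and skeletal muscle markers (2 of 11 called higher by edgeR and 7 called by DESeq2) had sums that overlapped. The part of these cells in the members was not tested.

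*Eif2ak3* was at 36.2, 38 and 39.4 CPM in KO and at 26.2, 23.8 and 25.8 CPM in skin labelled KO+ZnO NPs (log2 fold change -0.58, SE 0.13, edgeR adjusted p = 0.0169). *Edem1* went from 119, 136 and 139.6 CPM to 98.5, 77.7 and 68.5 CPM (log2 fold change -0.69, SE 0.15, edgeR adjusted p = 0.0168). *Hspe1*, with the heat shock element shown above, went from 91.9, 86 and 97.7 CPM to 125, 205 and 167 CPM (log2 fold change 0.85, SE 0.18, edgeR adjusted p = 0.0169). All treated libraries stood apart from all KO libraries in these 3 genes. *Hspd1* went from 173, 131 and 165 CPM to 191, 202 and 249 CPM, with separate groups and a difference past the threshold before but not after adjustment (log2 fold change 0.45, SE 0.15, edgeR adjusted p = 0.0593).

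The other sensors also lay below KO without passing the threshold. *Atf6* was at 69.6, 76.5 and 60.0 CPM after ZnO NPs (log2 fold change -0.37, SE 0.12, edgeR adjusted p = 0.0611). *Ern1* was at 36.8, 17.2 and 33.3 CPM (log2 fold change -0.76, SE 0.24, edgeR adjusted p = 0.0594). Replicate 2 was the lowest for *Ern1*, as it was for *Xbp1*, at 166, 97.6 and 206 CPM (log2 fold change -0.50, SE 0.23). *Atf4* was at 231, 239.8 and 246 CPM, within the KO range (log2 fold change -0.09, SE 0.19), and *Ddit3* at 13.9, 10.7 and 20.8 CPM overlapped KO too.

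Of the 11 ER chaperones and foldases, 0 were called by edgeR, 0 by DESeq2 on all 12 libraries and 0 had an unadjusted p below the threshold, with log2 fold changes between -0.42 and 0.15. *Sdf2l1* was at 15.4, 25.2 and 17.8 CPM after ZnO NPs (log2 fold change -0.42, SE 0.22). *Hspa5* was at 340.5, 492 and 385 CPM (log2 fold change -0.34, SE 0.18), *Hsp90b1* at 240.2, 421 and 272 CPM and *Calr* at 346, 473 and 385 CPM. Replicate 2 was the highest of the treated libraries for all 11 genes of this group. It also had the lowest adipocyte sum (1170 against 6557 and 6841 CPM) and sebaceous gland sum (2594 against 11515 and 16172 CPM) of them. Its plasma cell, leukocyte, melanocyte and immediate early sums were the highest of them, and the part of these transcripts was not tested. *Herpud1*, at 84.7, 65.8 and 101 CPM, overlapped KO.

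Among the targets of the integrated stress response edgeR called 0 and DESeq2 on all 12 libraries 1, *Sesn2* (lower), and 2 had an unadjusted p below the threshold. *Asns* at 48.6, 47.5 and 44.8 CPM lay within the KO range, and *Trib3* at 5.32, 6.45 and 7.01 CPM lay below all KO libraries (log2 fold change -0.57, SE 0.24, edgeR adjusted p = 0.121). *Chac1* was at 30.6, 3.42 and 11.2 CPM, highest in replicate 1. The sums of growing hair follicle genes in these libraries were 8652, 6273 and 225 CPM. Replicate 2 thus had the lowest *Chac1* beside the second highest sum, and a link between them was not tested. *Ppp1r15a* was at 41.5, 60.2 and 21.1 CPM, around the KO values of 57.1, 47 and 32 CPM.

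The cytosolic chaperones gave 0 calls by edgeR and 1 by DESeq2 on all 12 libraries, and 1 unadjusted p lay below the threshold, both for *Hsp90ab1*, whose groups were separate (log2 fold change 0.59, SE 0.18, edgeR adjusted p = 0.053). *Hspa1a* at 26.9, 43.7 and 27.4 CPM and *Hspa1b* at 103, 143 and 95.0 CPM overlapped KO, as did *Hspa8* at 1009, 1115 and 1113 CPM, *Hsp90aa1* at 247, 309 and 245 CPM and *Hspb1* at 309, 564 and 227 CPM. *Hsf1*, at 27.3, 42 and 37.6 CPM, was higher than all KO libraries in replicates 2 and 3 only (log2 fold change 0.30, SE 0.17). *Hspe1* lost its call without KO replicate 2 (log2 fold change 0.82, edgeR adjusted p = 0.0703), and *Eif2ak3* and *Edem1* lost theirs without KO replicate 2 or 3 or KO+ZnO NPs replicate 2 (0.0528 to 0.0711). The count of 3 was 0 with edgeR on only these 6 libraries, 8 with DESeq2 on all 12 and 6 among the libraries without Y-linked transcripts (*Bag3*, *Hsf1* and *Hspe1* higher, *Edem1*, *Eif2ak3* and *Sesn2* lower). Over all genes these fits called 571 of 17613, 4290 of 19649 and 2370 of 18532, against 2759 of 18822.

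Between the groups given ZnO NPs, the label KO went with more *Asns* and less *Hsph1*. These were the 2 members called of 36 (5.56%, against 3.28% of all genes, 2.13% higher and 1.16% lower), and the median log2 fold change of the members was -0.07, against 0.04 for all genes. *Asns* was at 48.6, 47.5 and 44.8 CPM in skin labelled KO+ZnO NPs and at 22, 33.4 and 28.1 CPM in skin labelled WT+ZnO NPs (log2 fold change 0.76, SE 0.16, edgeR adjusted p = 0.0396). *Hsph1* was at 31.6, 40.7 and 39.3 CPM against 82.6, 70.8 and 79.5 CPM, or 47.9% of the level in the group labelled WT (log2 fold change -1.06, SE 0.16, edgeR adjusted p = 0.0221). Both genes were separate between the groups.

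Groups did not overlap for 3 members that were higher in skin labelled KO+ZnO NPs and 6 that were lower, against 13% and 10.7% of all genes (23.8% together). *Asns*, *Atf6* and *Trib3* made up the first set, and *Atf4*, *Hsf1*, *Hspa1a*, *Hspa8*, *Hspd1* and *Hsph1* the second. *Atf6* had a log2 fold change of 0.48 (SE 0.12, edgeR adjusted p = 0.0548) and *Hspa1a* of -1.03 (SE 0.35, edgeR adjusted p = 0.107). The 11 ER chaperones and foldases all overlapped between these groups, with log2 fold changes of -0.26 to 0.26, 0 calls by edgeR or by DESeq2 on all 12 libraries and 0 unadjusted p-values below the threshold. The sum of the immediate early genes was 769.7 to 1965 CPM in skin labelled KO+ZnO NPs, below all of the libraries labelled WT+ZnO NPs, and its part in *Hsph1* and *Atf4* was not tested. The keratinocyte sums of these groups were separate too, with 2 of 10 markers called higher under the label KO+ZnO NPs, as were the leukocyte sums, at 534 to 954 CPM against 256 to 523 CPM with 0 of 8 called by edgeR (4 by DESeq2 on all 12 libraries, 5 at an unadjusted p below the threshold).

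*Asns* kept its call when WT+ZnO NPs replicate 2 or KO+ZnO NPs replicate 3 was left out and lost it without any of the other 10 libraries (edgeR adjusted p = 0.0516 to 0.145). *Hsph1* lost its call without WT+ZnO NPs replicate 3 (log2 fold change -1.04, edgeR adjusted p = 0.116) or KO+ZnO NPs replicate 1 (-0.95, 0.0531). With scaling by the total count alone, which moved the median of all genes to -0.11, the members divided into 0 higher and 2 lower, *Hsph1* and *Hspa8*, and 0 were called with a Y-linked covariate or with edgeR on only these 6 libraries. Over all genes those fits called 1 of 18822 and 0 of 17610, with 3216 and 3067 at an unadjusted p below the threshold. The log2 fold changes themselves moved little in those fits, to 0.74 for *Asns* and -1.10 for *Hsph1* with the covariate and to 0.72 and -1.10 on the 6 libraries.

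The interaction asks whether skin of the 2 labels answered ZnO NPs differently, and it shares the confounding between WT and WT+ZnO NPs. It was called for *Sdf2l1*, *Pdia6*, *Asns* and *Atf6*, each with the more negative response in skin labelled WT. These 4 members are 11.1% of the 36, against 8.68% of all genes (5.08% higher and 3.59% lower). *Sdf2l1* had an interaction of 1.25 on the log2 scale (SE 0.31, edgeR adjusted p = 0.0331), from a response of -1.67 in skin labelled WT and -0.42 in skin labelled KO. For *Pdia6* the interaction was 0.86 (SE 0.22, edgeR adjusted p = 0.0411), with responses of -0.77 and 0.09. For both ER genes the starting level in KO was already below WT, and the levels after ZnO NPs overlapped between the labels.

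*Asns* and *Atf6* were different in this, since their KO libraries overlapped WT and their levels after ZnO NPs were separate. The interaction was 0.88 for *Asns* (SE 0.23, edgeR adjusted p = 0.0397), with responses of -0.80 and 0.09, and 0.63 for *Atf6* (SE 0.17, edgeR adjusted p = 0.0465), with responses of -1.0 and -0.37. All 11 ER chaperones and foldases had an interaction above 0, with a median of 0.41 against 0.02 over all genes, and 4 of them had an unadjusted p below the threshold, as did 5154 of all 18822 genes. This sign is not a separate observation. It reuses the WT libraries, against which all 11 genes were lower both in KO and in skin labelled WT+ZnO NPs. In the same term, edgeR called 7 of 9 growing hair follicle genes lower (median -10.15), 4 of 8 melanocyte markers lower, 5 of 15 immediate early genes lower, 2 of 8 leukocyte markers higher (median 1.25), 1 of 8 adipocyte markers higher and 1 of 10 keratinocyte markers higher, and their part in the members was not tested. The interaction was negative for *Atf4* (-0.95, SE 0.27, edgeR adjusted p = 0.0525), *Hsph1* (-0.74, SE 0.22, edgeR adjusted p = 0.0584) and *Hspa1a* (-1.44, SE 0.50, edgeR adjusted p = 0.0929), none of which passed the threshold by edgeR. DESeq2 on all 12 libraries called each of them lower, with 3147 of 18367 genes called, against 1633 of 18822 by edgeR. *Chac1* and *Ppp1r15a* had the widest errors, with interactions of -0.74 (SE 1.17) and -1.24 (SE 0.69).

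Each of the 4 interactions lost its call for most libraries left out. *Sdf2l1* kept it without WT 3, KO 2, KO+ZnO NPs 1 or KO+ZnO NPs 3, *Pdia6* without KO+ZnO NPs 1 or 3, *Asns* without WT+ZnO NPs 2 or KO 2, and *Atf6* without WT+ZnO NPs 2 or KO+ZnO NPs 3, and the edgeR adjusted p lay between 0.0523 and 0.117 in the other fits. Scaling by the total count alone moved the median interaction of all genes to -0.13 and called *Sdf2l1* higher and *Atf4* and *Hsph1* lower, and a covariate for the Y-linked transcripts left 0 members called, and 125 of all 18822 genes in place of 1633. Under the covariate the interaction was 0.86 for *Asns* and 0.59 for *Atf6*, close to the values above, and 0.82 for *Sdf2l1* and 0.58 for *Pdia6*, nearer to 0 (edgeR adjusted p = 0.183 to 0.294). The covariate rests here too on KO replicate 1 and KO+ZnO NPs replicate 1 alone.

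The balance of the ER and cytosolic folding systems was read in each library as the summed level of the 11 ER genes over that of the 8 cytosolic genes. The ER sum was 3684, 3928 and 3305 CPM in WT, 2531, 2743 and 2769 CPM in KO, 2312, 2463 and 2489 CPM in skin labelled WT+ZnO NPs and 2094, 3135 and 2312 CPM in skin labelled KO+ZnO NPs. The cytosolic sum was 3325, 3328 and 3233 CPM in WT, 3241, 2886 and 2749 CPM in KO, 4126, 4576 and 3982 CPM in skin labelled WT+ZnO NPs and 3294, 4434 and 3304 CPM in skin labelled KO+ZnO NPs. WT had the highest ER sums and skin labelled WT+ZnO NPs had high cytosolic sums, which KO+ZnO NPs replicate 2 shared. The ratio was 1.11, 1.18 and 1.02 in WT, 0.78, 0.95 and 1.01 in KO, 0.56, 0.54 and 0.62 in skin labelled WT+ZnO NPs and 0.64, 0.71 and 0.70 in skin labelled KO+ZnO NPs. The ratios of the 4 groups did not overlap, with WT the highest and skin labelled WT+ZnO NPs the lowest. Since a few abundant genes weigh most in these sums, they describe RNA amounts and not the number of genes that moved, and no test was made of them.

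**Figure D4:**
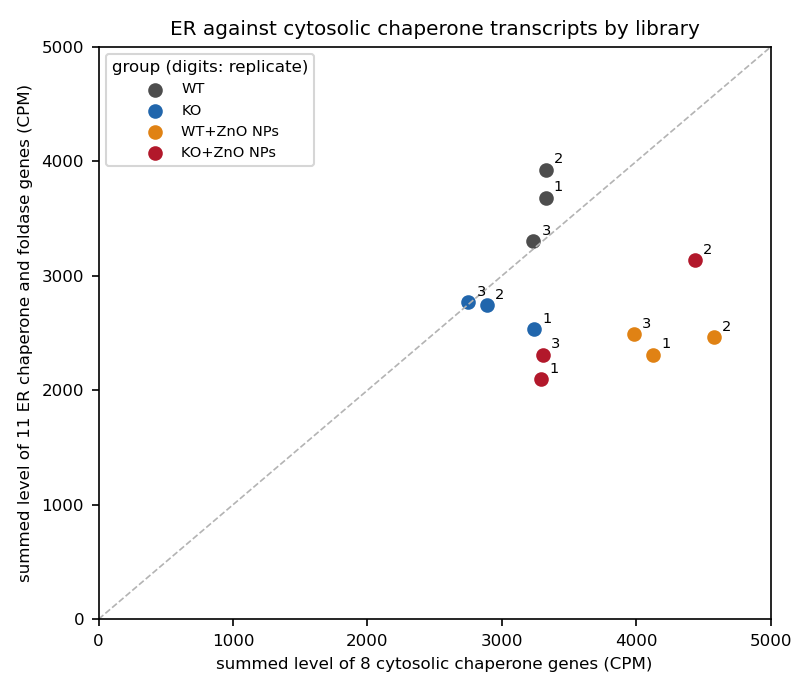
Summed level of the 11 ER chaperone and foldase genes (y axis, CPM) against that of the 8 cytosolic chaperone genes (x axis, CPM), with 1 point per library, digits for the replicate and a dashed line of equal sums. The 3 WT points and KO replicate 3 lie above the line and the other 8 below it, and the libraries labelled WT+ZnO NPs lie to the right at 3982 to 4576 CPM of cytosolic genes, with KO+ZnO NPs replicate 2 among them at 4434 CPM.

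Genes of the same pathways outside the 36 members were counted from lists of 30 genes each, and the largest called change on a list is named where the gene averaged 10 CPM or more. Among 30 other ER folding and degradation genes, 1 was higher and 14 were lower in skin labelled WT+ZnO NPs than in WT (median log2 fold change -0.26), where 20.8% of all genes were called higher and 22.1% lower, with *Pdia5*, a disulfide isomerase, the largest (-1.15, SE 0.30, edgeR adjusted p = 0.0102). In skin labelled KO+ZnO NPs against KO, 0 were higher and 5 lower (6.57% and 8.09% of all genes), and in KO against WT edgeR called 0 and DESeq2 on all 12 libraries 3, with 8 unadjusted p-values below the threshold (median -0.15). *Crebrf*, a regulator of the unfolded protein response, was at a mean of 27.1 CPM in skin labelled WT+ZnO NPs and 51.8 CPM in skin labelled KO+ZnO NPs (log2 fold change 0.93, SE 0.15, edgeR adjusted p = 0.0285). For the interaction, edgeR called 0 of these 30 ER genes, against 5 by DESeq2 on all 12 libraries and 12 with an unadjusted p below the threshold.

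Of 30 other genes of the integrated stress response, 9 were higher and 4 lower in skin labelled WT+ZnO NPs than in WT, a share near the 43% of all genes called there. *Atf3*, a stress-induced factor that is also one of the 15 immediate early genes, had the largest rise, from a mean of 32.7 CPM to 370.1 CPM (log2 fold change 3.50, SE 0.89, edgeR adjusted p = 0.00972). In skin labelled KO+ZnO NPs it stood at a mean of 21.5 CPM, and its interaction was -4.68 (SE 1.20, edgeR adjusted p = 0.0394). *Slc7a11*, the cystine transporter, was higher in KO than in WT, at a mean of 35.4 CPM against 6.73 CPM (log2 fold change 2.39, SE 0.52, edgeR adjusted p = 0.0214), and lower again in skin labelled KO+ZnO NPs (log2 fold change -2.24, SE 0.51, edgeR adjusted p = 0.0201). In KO against WT the list gave 2 higher and 1 lower (8.18% of all genes were called), and in skin labelled KO+ZnO NPs against KO 4 higher and 3 lower (14.7% of all genes).

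Of 30 other heat shock genes, 8 were higher and 3 lower in skin labelled WT+ZnO NPs than in WT, and 4 were higher and 1 lower in skin labelled KO+ZnO NPs than in KO. The first count is a smaller share than the 43% of all genes called, and the second stands beside 14.7%. *Hspa2*, an Hsp70 known from the testis, had the largest fold change in the first, from a mean of 10.1 CPM to 37.3 CPM (log2 fold change 1.89, SE 0.44, edgeR adjusted p = 0.00656). *Fkbp4*, an immunophilin partner of Hsp90, had the largest in the second, from a mean of 122 CPM to 229.9 CPM (log2 fold change 0.91, SE 0.18, edgeR adjusted p = 0.0126). *St13*, a co-chaperone that links Hsp70 and Hsp90, was the 1 gene of this list that edgeR called in KO against WT (log2 fold change -0.69, SE 0.13, edgeR adjusted p = 0.014) and was at a mean of 221 CPM in WT and 137 CPM in KO. DESeq2 on all 12 libraries called 4 genes of the list there, and 8 had an unadjusted p below the threshold.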

How the data were processed

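Skin RNA of 12 libraries in 4 groups of 3 was measured by RNA-seq. The authors deposited whole-number counts per gene, made by STAR and HTSeq in the study's methods, while the submitters' processing notes name HISAT2 2.0.5 and mm10. Strand use and the annotation release are not given in the sources used here, and reads shared between genes may have been lost. Of the 52636 genes, 52489 were matched to GENCODE release 21, with 0 entries that name no gene. The 36 members, the gene lists and the alternatives were chosen with earlier results of these data known.

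Counts were tested in R 4.3.3 with the quasi-likelihood test of edgeR 4.0.16, with TMM factors, its expression filter, 1 coefficient per group and all libraries in the fit (common dispersion 0.109), and p-values were adjusted by Benjamini-Hochberg over 18822 genes and called below 0.05. Standard errors derive from the F statistic and are approximate, and p-values measure the spread between these libraries. All called members are named with values, or by range where more than 12 were called. Levels in every library are given for the members that head each role. Replicates differed beyond sampling noise (chi-square per degree of freedom 37.37 to 161.8). Alternatives included DESeq2 1.42.0, other scalings and filters, a replicate block, a Y-linked covariate and leaving out each library.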

Additional observations from a re-analysis of the deposited data

Results flagged for a closer look

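By the interaction term of the edgeR fit, 4 members responded to ZnO NPs differently under the labels WT and KO. The interaction was 1.25 on the log2 scale for *Sdf2l1* (edgeR adjusted p = 0.0331), 0.86 for *Pdia6* (0.0411), 0.88 for *Asns* (0.0397) and 0.63 for *Atf6* (0.0465), each with the more negative response in skin labelled WT. *Sdf2l1* was at 15.4 to 25.2 CPM in both treated groups, and its KO libraries, at 21.8 to 29 CPM, already lay below WT. *Asns* was lower in the group labelled WT+ZnO NPs than in all other groups. These results share the groups that differ in Y-linked transcripts, and the part of that difference was not tested for single genes beyond the covariate, which left 0 of the 4 called. The interactions under the covariate were 0.86 for *Asns* and 0.59 for *Atf6*, close to those above, and 0.82 for *Sdf2l1* and 0.58 for *Pdia6*. The covariate itself is estimated from KO replicate 1 and KO+ZnO NPs replicate 1 alone.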

How the results depend on the processing

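The 32 calls were recomputed under the alternatives and without each library, and of 708 values 575 kept the call, 133 lost it and 0 reversed its direction. The calls of *Atf6*, *Sdf2l1*, *Edem1*, *Asns* and *Hsf1* between WT+ZnO NPs and WT held in every alternative. The covariate for Y-linked transcripts kept 9 of the 32.

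The 2 members called in KO against WT became 7 with DESeq2 on all 12 libraries, 6 with edgeR and 12 with DESeq2 on only the groups compared, 1 without a filter on low counts, 1 with the Y-linked covariate, 1 with no WT+ZnO NPs libraries in the fit and 0 in the libraries without Y-linked transcripts. The 21 called between WT+ZnO NPs and WT became 6 with the Y-linked covariate. The 3 called between KO+ZnO NPs and KO became 5 with library size only, 8 with DESeq2 on all libraries, 0 with edgeR on only the groups compared, 5 with at least 10 counts in every library and 6 in the libraries without Y-linked transcripts. The 2 called between KO+ZnO NPs and WT+ZnO NPs became 7 with DESeq2 on all libraries, 0 with edgeR on only the groups compared, 1 without a filter, 0 with the Y-linked covariate and 0 in the libraries with Y-linked transcripts, where the lone KO+ZnO NPs library is assumed to vary like the others. The 4 interactions became 7 with DESeq2, 1 without a filter and 0 with the covariate. The cause was not tested, apart from the fewer libraries or the larger number of genes tested that some settings bring by construction.

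When each library was left out in turn, the counts ranged from 0 (without WT 2) to 5 (without KO+ZnO NPs 2) in KO against WT, from 17 to 26 between WT+ZnO NPs and WT, from 0 (without KO 2) to 7 (without KO+ZnO NPs 1) between KO+ZnO NPs and KO, from 0 (without WT+ZnO NPs 3 or KO+ZnO NPs 1) to 5 (without KO+ZnO NPs 3) between the treated groups, and from 0 to 3 for the interaction. Same-numbered libraries did not all deviate together (r of -0.343 to 0.429). With 3 libraries per group these values cannot settle whether the numbers pair libraries. The highest r was that of KO 1 with KO+ZnO NPs 1, which both hold Y-linked transcripts. With the replicate block the counts were 2, 22, 4, 3 and 4 in the order above, and *Pdia6* lost its call in KO against WT (edgeR adjusted p = 0.0543) and in the interaction (0.0508). Precision is limited by 3 libraries per group, and by shared reads for the genes with near copies.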
